A study of Mus musculus with 10 samples.

Results

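The probes mmu-miR-2141, mmu-miR-2132 and mmu-miR-720 were 3 of the 566 mouse probes on a NanoString nCounter miRNA panel. They were chosen by name, because these names were once entered as miRNAs and are known to belong to fragments of ribosomal or transfer RNA. The panel was run on 5 libraries from homozygous Bim 3'UTR mutant cells (mutant 6 to 10, genotype label Bim3'UTRmut/mut) and 5 from wild type cells (wild type 1 to 5). All were C57BL/6 B cell progenitors from E14.5 fetal liver, transformed in culture with a retroviral vector for the v-Abl kinase and started with IL-7. Bim (Bcl2l11) is a BH3-only protein that promotes apoptosis. The labels name no further allele, do not say which bases of the 3'UTR were changed, and do not say whether the 5 libraries of a genotype came from separate embryos. The p-values therefore measure the spread between these libraries, which may be partly technical.

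Ribosomal RNA and transfer RNA make up most of the RNA of a cell, and their breakdown yields short pieces of miRNA size. Some pieces arise by chance decay and others by cleavage of mature transfer RNA in the anticodon loop or near the ends, which is known to increase under stress. miR-720 was assigned to a threonine transfer RNA, while miR-2141 and miR-2132 were assigned to ribosomal RNA and belong to a run of consecutive names. None of these 3 probes is read as a Dicer product that represses mRNAs in what follows.

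The panel also held neighbours by name, from which a wider list of 15 probes was made: miR-720, the 2 probes for miR-1937 variants (pieces of transfer RNA) and the 12 probes on the panel numbered between miR-2132 and miR-2146. RefSeq's mature miRNA sequences (build GRCm38.p6) matched 3 of the 16 single names in this list, none of them miR-2141, miR-2132 or miR-720. They are shown because they set a miRNA annotation beside fragments from the same run of names, with bases 2 to 8, the seed, in capitals. miR-2137 lies at chrX:72992113-72992133 on the plus strand, miR-2136 at chr9:104426163-104426183 on the plus strand and miR-2139 at chr4:139967531-139967554 on the minus strand.
miR-2137: gCCGGCGGgagccccagggag
miR-2136: cUGGGUGUugacugagaugug
miR-2139: aGCUGCGCugcuccugguaacugc
G and C made up 85.7% of miR-2137, 52.4% of miR-2136 and 62.5% of miR-2139. The probe for miR-2137 was above background in all 10 libraries, whereas those for miR-2136 (17 to 31 counts) and miR-2139 (35 to 79 counts) exceeded it in 0 of 10.

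Total counts ran from 356141 to 470493 per library, of which 240469 to 354826 fell on mouse probes. Background was set for each library at the mean + 2 SD of its 8 negative controls, which came to 90.5 to 127 counts. The 116 mouse probes over this threshold in 5 or more libraries were tested. The names of the columns of raw counts end in a number, 6 to 10 for mutant and 1 to 5 for wild type libraries. If it is the lane, which the headers do not say, an effect of lane cannot be told apart from genotype. Mutant 9 and 10 stood apart from the rest of their group, with Pearson r across kept probes of 0.839 to 0.935 in pairs that include either and 0.966 to 0.986 in the other mutant pairs (log2 counts, probes not being independent replicates). In the wild type group r was 0.919 to 0.945 where wild type 5 was in the pair and 0.978 to 0.993 elsewhere. Of the 8 miRNAs listed as B-lymphoid and pan-haematopoietic markers, 7 were on the panel under their own name. All of these were kept (68 of their 70 values exceeded background), while 0 of 13 markers of other cell types were kept (5 of their 130 values exceeded background). The first list takes in miR-16 and miR-15b, and how specific its members are was not tested.

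miR-2141, a ribosomal RNA fragment, was among the most counted probes of the panel and varied widely between libraries of the same genotype. It had 5945, 4646, 20000, 29002 and 10481 counts in mutant 6 to 10, against 22813, 8176, 19683, 12492 and 10194 counts in wild type 1 to 5. Mutant 9 was the highest of all libraries and mutant 7 the lowest, with every wild type library between them, so the groups overlapped. By rank among mouse probes it stood between 2nd and 16th in mutant libraries and between 2nd and 10th in wild type libraries. The normalised count was 12647 ± 8246 in mutant and 15519 ± 6160 in wild type libraries (SD, n = 5 each), and counting error alone is 0.835% of its mean count.

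miR-720, the transfer RNA fragment, reached a similar count with a far smaller spread. It had 12862, 13896, 11094, 9078 and 18812 counts in mutant 6 to 10, against 13506, 15639, 10585, 11659 and 9729 counts in wild type 1 to 5. The highest and the lowest value were again both in mutant libraries, mutant 10 and mutant 9, and the groups overlapped. The normalised count was 12579 ± 3854 in mutant and 12992 ± 2197 in wild type libraries (SD, n = 5 each). Its rank lay between 4th and 15th in mutant and between 3rd and 7th in wild type libraries. Probes differ in how well they capture their target, so the counts of miR-720 and miR-2141 are not relative amounts of the 2 fragments.

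miR-2132, the other ribosomal RNA fragment, was scarce and lay partly at background. It had 53, 95, 170, 115 and 327 counts in mutant 6 to 10, against 499, 244, 477, 229 and 63 counts in wild type 1 to 5. It exceeded the threshold in 3 of 5 mutant and 4 of 5 wild type libraries, the exceptions being mutant 6, mutant 7 and wild type 5. The 115 counts of mutant 9 had an exact 95% Poisson interval of 94.9 to 138, which includes that library's threshold of 107 and covers counting error only. Mutant 10 lay above wild type 2, 4 and 5, so the groups overlapped. The normalised count was 142 ± 99.2 in mutant and 317 ± 185 in wild type libraries (SD, n = 5 each).

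**Figure D1:**
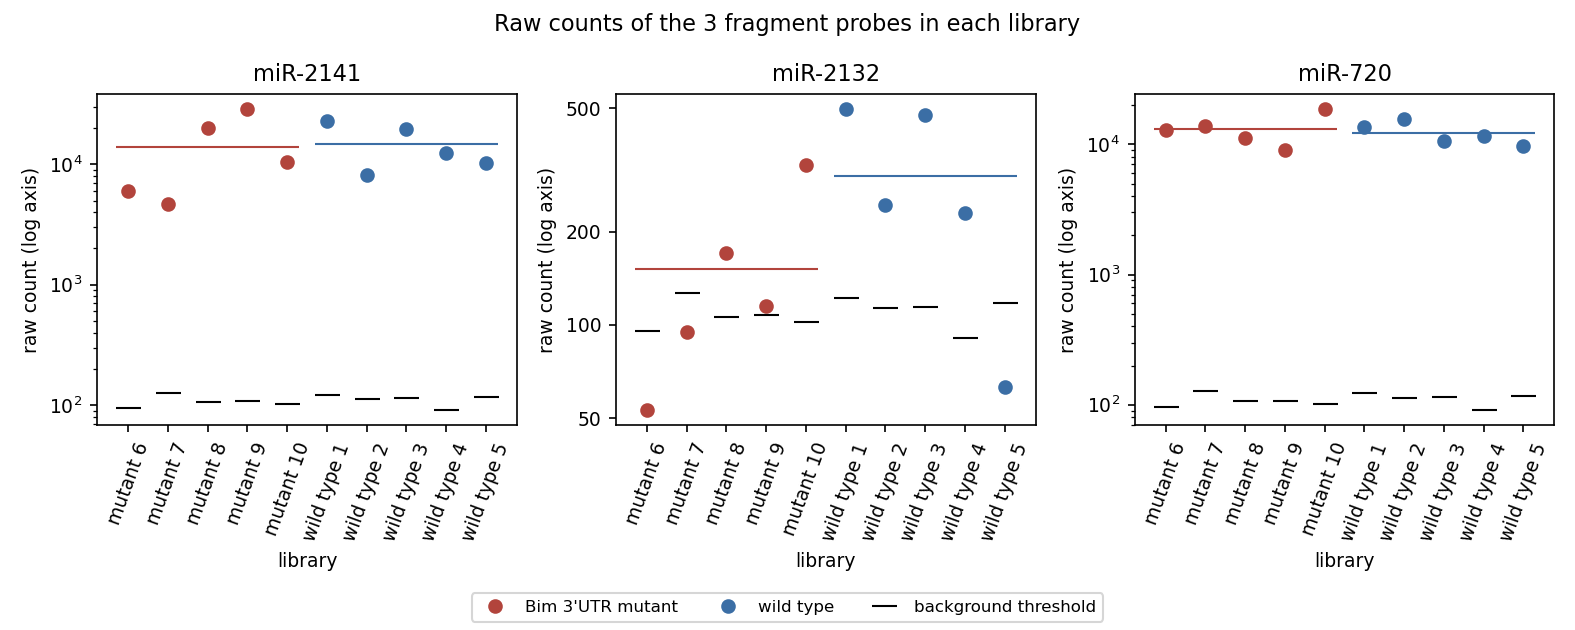
Raw counts (log axis) of miR-2141, miR-2132 and miR-720 in each library, mutant libraries in red and wild type libraries in blue, with the group mean as a line and each library's background threshold as a black dash. miR-2141 runs from 4646 to 29002 and miR-720 from 9078 to 18812, both far above the thresholds, while miR-2132 lies below the threshold in mutant 6, mutant 7 and wild type 5.

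Together the 3 probes took 7.51%, 7.30%, 10.9%, 10.8% and 8.94% of mouse probe counts in mutant 6 to 10, against 13.8%, 9.47%, 11.7%, 10.1% and 8.09% in wild type 1 to 5. The mean was 9.08% ± 1.71 in mutant and 10.6% ± 2.21 in wild type libraries (SD, n = 5 each) and the groups overlapped. The difference was -1.57 percentage points, mutant minus wild type, and ran from -0.77 without wild type 1 to -2.21 without wild type 5. As a share of all probe counts it was -0.708 percentage points. Their summed count was 27315 ± 8457 in mutant and 27198 ± 6613 in wild type libraries. The mean mouse probe total was 1.17 times as high in mutant as in wild type libraries, and 1.18 times without the 3 probes. It was 296029 ± 45990 in mutant and 254052 ± 10652 in wild type libraries (SD, n = 5 each), and the groups overlapped. Mutant 8 (287546), 9 (354826) and 10 (331407) lay above the wild type range of 240469 to 266022, while mutant 6 (251192) and 7 (255173) lay within it. The other 12 probes of the wider name list added 2.25% to 6.64% in mutant and 1.90% to 5.94% in wild type libraries, with the highest value of each genotype in mutant 9 and wild type 5.

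The balance between the 2 abundant fragments shifted from library to library. The count of miR-2141 divided by that of miR-720 was 0.462, 0.334, 1.80, 3.19 and 0.557 in mutant 6 to 10, against 1.69, 0.523, 1.86, 1.07 and 1.05 in wild type 1 to 5. This ratio covered a 9.56-fold range among mutant libraries and a 3.56-fold range among wild type libraries. Mutant 9 combined the highest miR-2141 count of the 10 libraries with the lowest miR-720 count.

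**Figure D2:**
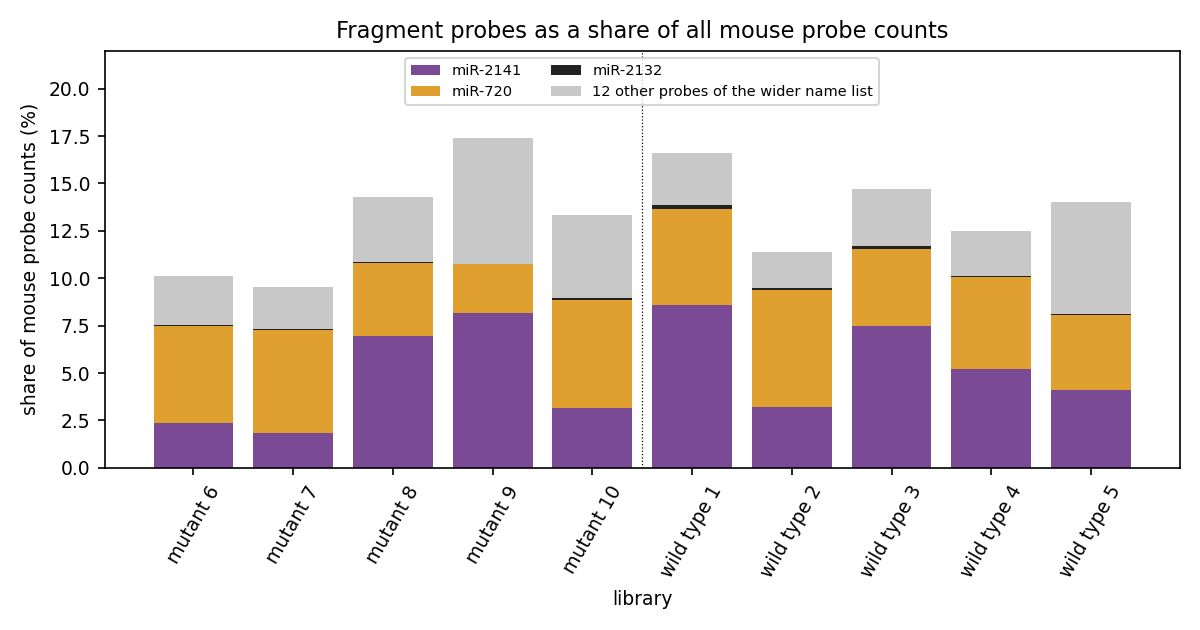
Share of mouse probe counts (percent) taken by miR-2141, miR-720, miR-2132 and the 12 other probes of the wider name list, stacked for each library, mutant libraries on the left of the dotted line and wild type libraries on the right. The 3 probes together run from 7.30% in mutant 7 to 13.8% in wild type 1, and miR-2132 is barely visible at 0.188% or less.

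The genotype comparison asks whether the small RNA content of the cells differed with the Bim 3'UTR mutation. None of the 3 probes passed the test, and the differences of miR-2141 and miR-720 were smaller than the SD within either genotype. In edgeR's quasi-likelihood test over the 116 kept probes, 0 of the 3 passed an adjusted p of 0.05, where percent called over all probes was 0 (0 of 116, and 5 of 115 in DESeq2 or 4.35%). At an unadjusted p under 0.05 edgeR called 0 of the 3, beside 9.48% of all kept probes (11 of 116). All 3 fitted changes were below 0, as were 50% of all kept probes, and scaling to the control mRNAs turned miR-2141 to 0.24 and miR-720 to 0.40, while miR-720 also turned under scaling to the positive controls (0.14) and with no filter (0.11), on the log2 scale.

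miR-2132 had the largest fitted change of the 3, with a log2 fold change of -1.16 mutant over wild type (SE 0.58, 95% interval -2.47 to 0.15, edgeR adjusted p = 0.373). It was past 2-fold, like 4.31% of kept probes, and ranked 4th by size of change and 23rd by p. With 3 libraries at or below background, this change rests on few counts, and it was -1.52 (SE 1.04) after the mean of the negative controls had been subtracted. The DESeq2 Wald test gave it an unadjusted p of 0.0336 and an adjusted p of 0.215. For miR-2141 the log2 fold change was -0.30 (SE 0.47, 95% interval -1.36 to 0.77, edgeR adjusted p = 0.831). For miR-720 it was -0.05 (SE 0.22, 95% interval -0.54 to 0.44, edgeR adjusted p = 0.970). The interval of miR-720 leaves out a 2-fold change in either direction, whereas that of miR-2141 includes a 2-fold lower level.

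Shares of mouse probe counts gave the same calls. miR-2141 took 4.50% ± 2.87 in mutant and 5.72% ± 2.26 in wild type libraries (SD, n = 5 each; exact two-sided permutation p = 0.444, adjusted p = 0.813 over the 116 kept probes). miR-720 took 4.53% ± 1.31 in mutant and 4.81% ± 0.901 in wild type libraries (exact permutation p = 0.714, adjusted p = 0.954, n = 5 each). miR-2132 took 0.0497% ± 0.0307 in mutant and 0.117% ± 0.0679 in wild type libraries (exact permutation p = 0.103, adjusted p = 0.443, n = 5 each). Of all kept probes, 10.3% had an exact permutation p under 0.05 and 0 passed after adjustment. The groups of normalised counts did not overlap for 2.59% of kept probes, none of them among these 3. In bulk RNA a lower level per cell and fewer cells with the fragment cannot be told apart.

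**Figure D3:**
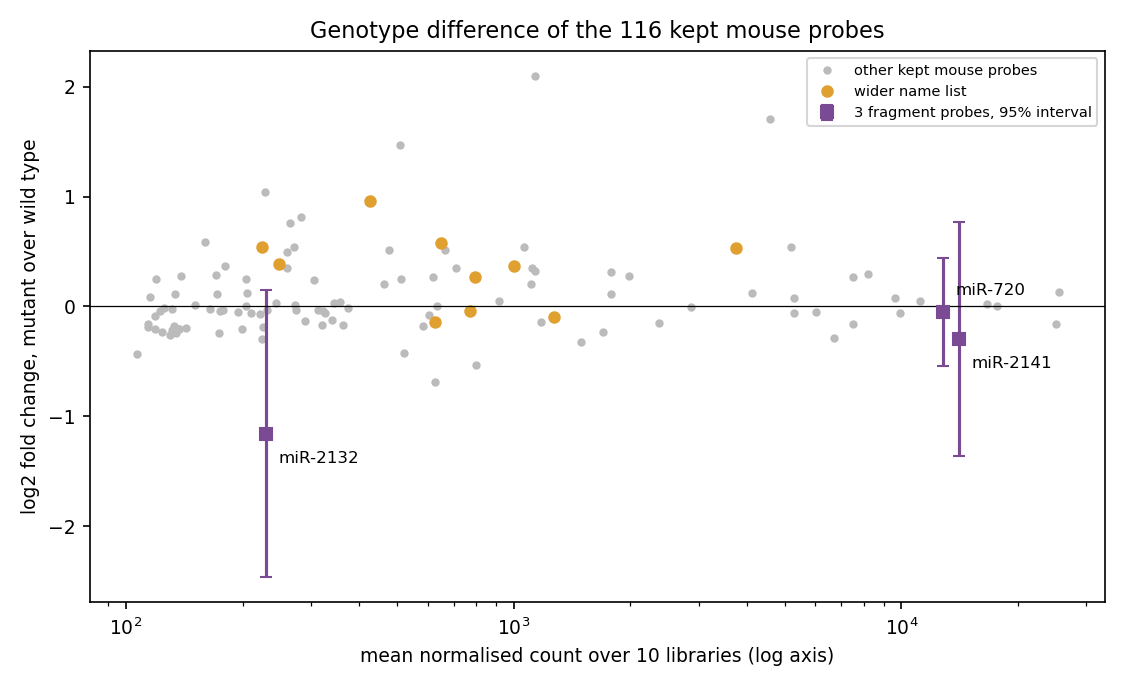
Log2 fold change, mutant over wild type, against the mean normalised count (log axis) for the 116 kept mouse probes, with the 3 fragment probes as purple squares with 95% intervals and the other kept probes of the wider name list in orange. All 3 intervals cross 0, and the widest belongs to miR-2132.

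miR-2141 and miR-2132 had a wide spread between libraries of the same genotype. The SD of log2 normalised counts within genotypes was 0.83 for miR-2141, 1.05 for miR-2132 and 0.38 for miR-720, against a median of 0.23 over the 116 kept probes. Ranked from the most variable, they stood 23rd, 13th and 37th, with the value of miR-2132 resting in part on 3 counts below background. Among the 6 probes with the highest means miR-2141 had the largest SD. The others outside the fragments had an SD of 0.20 (miR-16), 0.15 (miR-142-3p), 0.17 (miR-20a with miR-20b) and 0.22 (miR-106a with miR-17). By genotype, the SD of miR-2141 was 1.01 in mutant and 0.60 in wild type libraries, that of miR-2132 was 0.93 in mutant and 1.16 in wild type libraries, and that of miR-720 was 0.48 in mutant and 0.24 in wild type libraries. Without mutant 9 and 10 the SD was 0.23 for miR-720, 0.79 for miR-2141 and 1.04 for miR-2132, beside a median of 0.18 over all kept probes. Without wild type 5, where miR-2132 was below background, the SD of miR-2132 was 0.79 and its rank 21st. That of miR-2141 was then 0.87 and that of miR-720 0.39, beside a median of 0.24.

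The positive controls, the ligation controls and Rpl19 moved less than miR-2141 and miR-720. Over the 10 libraries the highest raw count was 6.24 times the lowest for miR-2141 and 2.07 times for miR-720, while miR-2132 has no such ratio because its lowest counts were below background. The geometric mean of the positive controls covered a 1.19-fold range and that of the positive ligation controls, which follow the joining of the tag to a small RNA, a 1.45-fold range. Among the control mRNAs the range was 1.42-fold for Rpl19, a ribosomal protein mRNA, 2.42-fold for Actb, 3.06-fold for B2m and 4.86-fold for Gapdh, the last 3 being wider than for miR-720 and narrower than for miR-2141. Scaling to the positive ligation controls left the SD within genotypes at 0.86 for miR-2141, 1.04 for miR-2132 and 0.38 for miR-720.

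**Figure D4:**
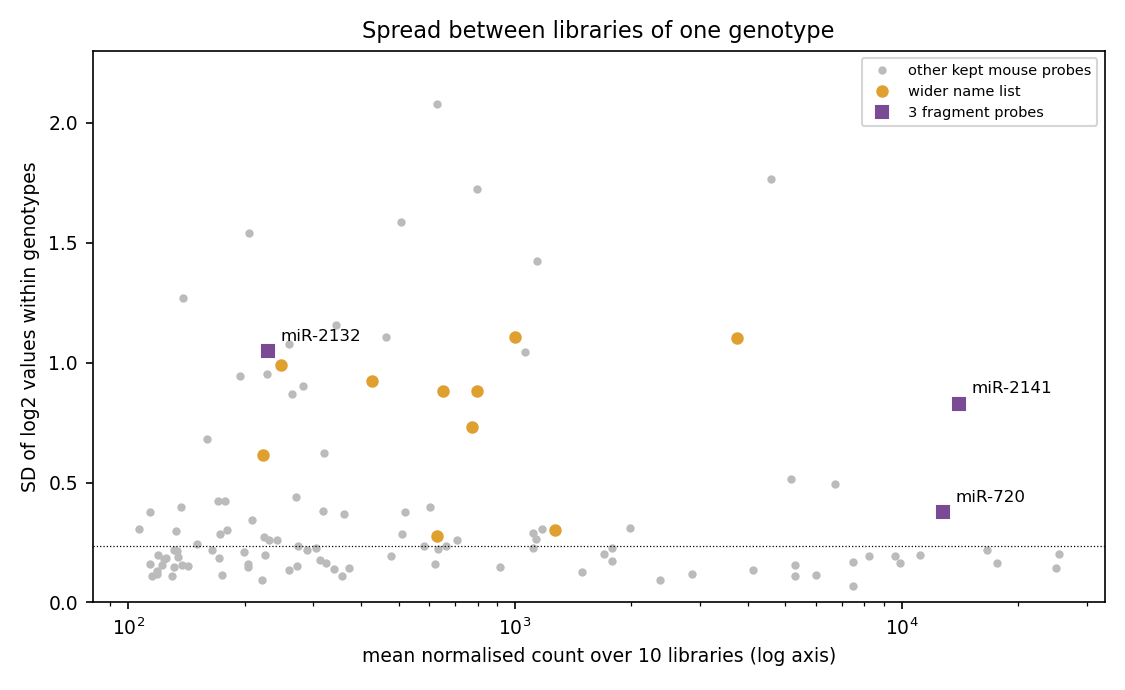
SD of log2 normalised counts within genotypes against the mean normalised count (log axis) for the 116 kept mouse probes, the dotted line marking their median of 0.23. miR-2141 at 0.83 lies above the other probes of similar mean, and miR-720 at 0.38 lies between it and the median.

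Of the 12 probes numbered between miR-2132 and miR-2146, 10 were kept, 8 of them besides miR-2141 and miR-2132. The SD within genotypes of these 8 ran from 0.61 to 1.11, with a median of 0.90, and they ranked 9th to 27th of 116. Without mutant 9 and 10 their median was 0.57 and their ranks 3rd to 30th, beside a median of 0.18 over all kept probes. The 2 miR-1937 probes lay lower, at 0.30 for the probe shared by miR-1937a and miR-1937b and 0.28 for miR-1937c. These probes may share parts of the same ribosomal RNA or transfer RNA, so they are not independent.

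No other kept probe of the wider list passed the genotype test either. Of the 10 others, 7 had fitted log2 fold changes above 0 and 3 below, beside 58 of all 116 kept probes above 0. All 7 are numbered between miR-2132 and miR-2146 and are not independent of each other. The median of the 10 was 0.38, beside -0.00 over all kept probes. At an unadjusted p under 0.05 edgeR called 0 of the 10, beside 9.48% of all kept probes (11 of 116). The highest was miR-2137 at 0.96 (SE 0.55, edgeR adjusted p = 0.401). It had 562 ± 455 normalised counts in mutant and 289 ± 102 in wild type libraries (SD, n = 5 each). miR-2145 (0.58), miR-2138 (0.54), miR-2133 (0.53), miR-2134 (0.38), miR-2146 (0.37) and miR-2140 (0.26) followed as log2 fold changes. Below 0 were miR-1937c (-0.14), the probe for miR-1937a and miR-1937b (-0.09) and miR-2135 (-0.05).

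Of the 10 kept probes numbered from miR-2132 to miR-2146, 8 had their highest normalised count in mutant 9, miR-2141 among them, as did 27 of all 116 kept probes. For 4 of the 8 the next library was almost as high: miR-2145 had 1304 normalised counts in mutant 9 and 1284 in mutant 10, miR-2140 had 1586 and 1532 in the same libraries, miR-2141 had 23632 in mutant 9 and 23128 in wild type 1, and miR-2133 had 9136 in mutant 9 and 8720 in wild type 5. The gap was widest for miR-2134. It had 870 normalised counts in mutant 9, against 89.1 to 205 in the other mutant libraries and 128 to 270 in wild type libraries. The lowest of these values, in mutant 7, was below background. miR-2133 also had 5157 in mutant 10 and 3479 in mutant 8, and 861 to 2332 in wild type 1 to 4. The 2 probes not highest in mutant 9 were miR-2146, highest in wild type 5, and miR-2132, highest in wild type 1. Both miR-1937 probes had their 3 lowest normalised counts in mutant 9, mutant 10 and wild type 5, at 956, 977 and 928 for the shared probe.

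Across the 10 libraries, the profile of miR-2141 was closest to that of miR-2135 in the same run of names (Pearson r = 0.89, Spearman rho = 0.84, log2 normalised counts). With miR-2134, which was below background in mutant 7 (91 counts, threshold 127) and at it in mutant 6 (96 counts, threshold 95.3), r was 0.71. With miR-2132, which was below background in mutant 6, mutant 7 and wild type 5, it was 0.49. miR-720 ran the other way from miR-2141 (r = -0.58, rho = -0.60), and its r with the probe for miR-1937a and miR-1937b was 0.40. All values share the same 10 libraries, and the libraries fall into unlike sets within each genotype, so these correlations describe the profiles and carry no test. Without the 2 libraries farthest from the median of miR-2141, mutant 7 and mutant 6, r was 0.71 with miR-2135, 0.51 with miR-2134 and 0.12 with miR-2132, and -0.69 with miR-720. Without mutant 9 and mutant 10, the farthest for miR-720, its r was 0.65 with the probe for miR-1937a and miR-1937b and -0.49 with miR-2141.

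**Figure D5:**
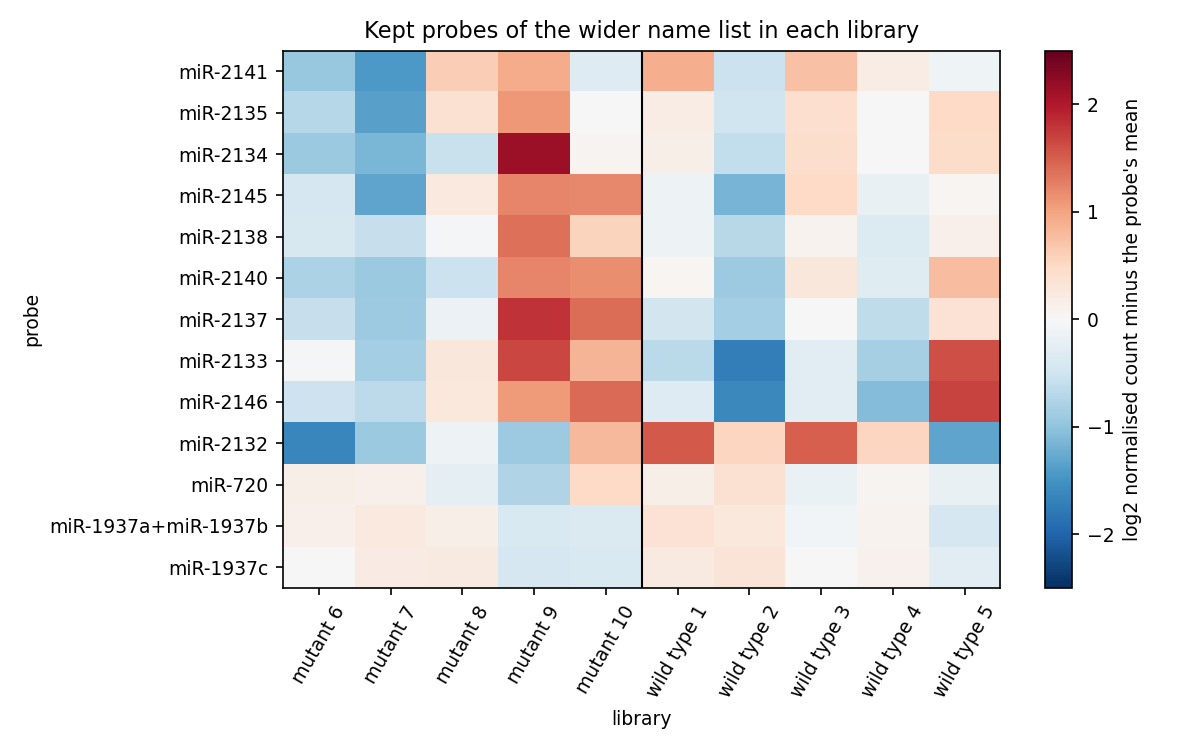
Log2 normalised count minus the probe's own mean over the 10 libraries, for the 13 kept probes of the wider name list (rows) in each library (columns, mutant libraries left of the line, wild type libraries right of it), red for above and blue for below. Of the 10 rows numbered from miR-2132 to miR-2146, all but miR-2132 are red in mutant 9, while miR-720 and the miR-1937 probes are blue there.

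Outside the wider list, the probes most like miR-2141 were miR-540-3p (r = 0.67), miR-1224 (0.63) and miR-804 (0.62), all over 10 libraries and all at 0.35 or less without mutant 7 and mutant 6. For miR-2132 they were let-7e (r = 0.75), miR-27a (0.75) and miR-466g (0.72), and for miR-720 they were miR-27b (0.77), let-7e (0.76) and miR-322 (0.75). Without mutant 6 and wild type 5, the libraries farthest from the median of miR-2132, its r was 0.68 with let-7e, 0.86 with miR-27a and 0.54 with miR-466g. Without mutant 9 and mutant 10, the farthest for miR-720, r was 0.60 with miR-27b, 0.53 with let-7e and 0.30 with miR-322. Some of these profiles lay near background. miR-2132 was below it in mutant 6, mutant 7 and wild type 5, of which mutant 7 stayed in after the omission. The mean normalised counts of miR-27b (131) and miR-466g (137) were close to the thresholds of 90.5 to 127, so their r may partly follow low counts. miR-540-3p and miR-322 had higher means (260 and 282) but fell to 0.0219% and 0.0302% of mouse probe counts in their lowest mutant library. For comparison, miR-2132 was below background at 0.0372% in mutant 7, so the r of miR-540-3p and miR-322 may partly follow low counts as well. let-7e was thus among the closest to both miR-2132 and miR-720, although the r between those 2 fragments was 0.33. The probes named here were picked from all kept probes outside the list for the highest r over 10 libraries. High values therefore follow partly from that choice, and the likeness was not tested. miR-27a and miR-27b come from paralogous clusters and share a seed, in capitals. miR-27a was among the probes closest to miR-2132, and miR-27b among those closest to miR-720. Their RefSeq mature sequences (3p arms, matched to the older panel names, GRCm38.p6) are shown for this reason, beside let-7e, which has a different seed. miR-27a lies at chr8:84208727-84208747 on the plus strand, miR-27b at chr13:63300760-63300780 on the plus strand and let-7e at chr17:17830366-17830387 on the plus strand.
miR-27a: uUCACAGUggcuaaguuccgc
miR-27b: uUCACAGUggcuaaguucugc
let-7e: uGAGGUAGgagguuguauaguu
Probes for such close relatives may bind each other's target, and the tables hold no probe sequences with which to test this.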

How the data were processed

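miRNAs were counted on a NanoString nCounter panel from 100 ng of total RNA (miRNeasy kit), per the labels' protocols. The authors deposited whole-number counts per probe, raw as far as the values show; all 6260 values were equal in both deposited tables. No label or header describes further upstream steps. Groups and library numbers came from the sample titles. The members and lists were chosen with earlier results of these data known.

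Mouse probes above the mean + 2 SD of the 8 negative controls in at least 5 libraries were kept (116 of 566) and tested in edgeR 4.0.16 (R 4.3.3; TMM, robust quasi-likelihood fit on genotype, Benjamini-Hochberg adjustment over all kept probes at 0.05). Normalised counts are counts divided by the TMM-scaled library size and multiplied by its mean. Shares were compared by exact two-sided permutation of the means (252 arrangements). The test was tested on simulated data. Those data had equal spread for all probes, so this check does not cover probes as variable as miR-2141 and miR-2132. Alternatives used DESeq2 1.42.0, limma 3.58.1 (voom), other scalings, filters, denominators, background subtraction and left-out libraries.

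The text names the 3 probes, every other kept probe of the wider name list, the 3 closest probes outside it by Pearson r, the 4 control mRNAs and the 4 probes with the highest mean. miR-15b is named as part of the marker list. miR-2136 and miR-2139 were named after their values were seen.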

Additional observations from a re-analysis of the deposited data

How the results depend on the processing

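None of the 3 probes passed an adjusted p of 0.05 under any alternative. The log2 fold change of miR-2132 stayed below 0 in 23 of 23 alternatives, from -1.65 without mutant 10 to -0.74 with scaling to the control mRNAs (adjusted p from 0.208 to 0.678); requiring detection in all 10 libraries removed the probe, so that setting gave no value. miR-2141 stayed below 0 in 23 of 24, with -0.62 to -0.08 when a library was left out, -0.64 without mutant 9 and 10, and 0.24 with scaling to the control mRNAs. miR-720 was close to 0 and changed sign in 6 of 24, with 0.40 under control mRNAs, 0.14 under positive controls, 0.11 with no filter, and -0.18 to 0.14 when a library was left out (0.05 without wild type 2, 0.01 without mutant 8, 0.14 without mutant 9). Those scalings moved the median of all kept probes to 0.46 (control mRNAs), 0.20 (positive controls) and 0.22 (no filter), so the 3 probes lay below that median in each. Leaving the 3 probes out of the TMM factors moved no other probe by more than 0.0321 (log2). Differences in share kept their sign for miR-2141 and miR-2132. For miR-2141 (-1.23 percentage points with all libraries) the difference ran from -0.51 without wild type 1 to -2.15 without mutant 9, with -0.56 without mutant 7, and for miR-2132 (-0.0675) from -0.0499 to -0.0904. That of miR-720 ran from -0.56 to 0.22 percentage points when a library was left out (0.0582 without wild type 2, 0.215 without mutant 9). The number of probes past the adjusted threshold was 5 with DESeq2, 5 without mutant 9 and 10, and 0 to 1 when a library was left out. The SD of miR-720 fell from 0.377 to 0.235 without mutant 9 and 10, while the median over all kept probes fell from 0.235 to 0.181. Leaving out mutant 9 and 10, leaving out wild type 5 for the SD, and the other scalings of the SD were chosen after seeing the data. The cause of each change was not tested. No paired analysis was possible because the groups share no library number. miR-2132 lay below the threshold in 3 libraries, where it has no measured level above background.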
